A study of Mus musculus with 10 samples.

Results

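RNA of 10 mouse ovaries was sequenced, and the 9 genes described here are Cd79a, Cd79b, Ms4a1, Pou2af1, Prdm1, Xbp1, Mzb1, Jchain and Sdc1, which are commonly used to mark B cells and plasma cells. They were taken by gene name from the 55487 genes of the count table. They were chosen by their counts in these same ovaries, with the results of the 3 comparisons already known, so their own differences between the groups are descriptions and carry no test. All mice were females of C57BL/6J background. By their labels, the 4 Control ovaries are from mice aged 8 weeks, and the 3 Aged and 3 Aged+CF ovaries from mice aged 11 months. The Aged+CF mice received CEFFE, the cell-free extract of fat tissue, as 200 μL at 3 μg/μL into the tail vein, and Control and Aged mice received the same volume of saline. All mice, Control included, were given 10 IU of PMSG, a hormone that stimulates follicle growth, 48 h before the ovaries were collected. Each ovary has its own library and is named by its group and by the number in its label. The labels do not state whether every ovary came from a different animal, so the spread within a group is that between these ovaries. Both comparisons with Aged rest on the same 3 Aged ovaries.

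B cells carry an antigen receptor made of a membrane immunoglobulin and the signalling chains CD79A and CD79B. After activation, some become plasma cells, in which PRDM1 shuts down the B cell program and XBP1 enlarges the secretory apparatus. Plasma cells secrete immunoglobulins, and JCHAIN joins IgM and IgA into polymers that can be carried across epithelia. Both cell types are scarce in the young mouse ovary.

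Between 15761789 and 21318254 reads were counted on genes per ovary. Levels are given as CPM, read counts scaled to the library size with TMM factors, or as FPKM, which also divides by gene length and is used wherever different genes are set side by side. Aged 34 stood apart from the other ovaries. In it the summed level of 8 oocyte genes was lowest, at 7.61 CPM against 72.5 and 77.0 CPM in the other Aged ovaries, and the summed level of 8 leukocyte genes was highest, at 481 CPM. Genes of the ciliated oviduct were high in Control 33 and Aged 34, with summed levels of 572 and 493 CPM against 176 to 234 CPM in the other 8 ovaries. Of all 18956 genes that passed the filter on low counts, 16.9% had their highest level in Aged 34. Aged 33 also stood apart, with 21.1% of the genes at their highest level, a TMM factor of 0.871, the lowest of the 10 ovaries, and a summed level of 10 epithelial genes of 48.8 CPM against 106 to 374 CPM elsewhere. Results are given without Aged 34, and the counts of calls also without Aged 33. Fewer cells of a type and less RNA per cell cannot be told apart in RNA of whole ovaries.

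The labelled cell types were only thinly represented by reads. In Control ovaries, Pax5, the factor that fixes B cell identity, had 4 to 8 reads. Tnfrsf17, the receptor BCMA of plasma cells, had no read in 5 of the 10 ovaries and at most 10 reads, in Aged 34. Among the 9 genes, 6 had mean levels under 2 CPM in Control and 2, Sdc1 and Xbp1, were at 75.0 CPM or more in each ovary. Syndecan-1, encoded by Sdc1, is also made by epithelial cells, and XBP1 is part of the unfolded protein response of many cells. In Aged 33 and 34, the summed epithelial genes were at 48.8 and 374 CPM, and Sdc1 was at 609 and 155 CPM. The source of the Sdc1 reads was not tested. Reads of Sdc1 outnumbered those of Ptprc, the gene of the leukocyte phosphatase CD45, in each ovary, with 284 to 2672 Sdc1 reads per 100 Ptprc reads. The name of the gene group thus covers Sdc1 and Xbp1 only loosely in this tissue.

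RefSeq promoter windows on GRCm38.p6, from 250 bases before to 50 bases after the start of transcription, were found for 6 of the 9 genes. Cd79b, Ms4a1 and Mzb1 had no entry. Windows of 4 genes are shown, Cd79a, Jchain and Pou2af1 because their levels were alike across the ovaries, and Sdc1 because its levels did not follow theirs. They are Cd79a at chr7:24897247-24897546 on the + strand, Jchain at chr5:88527848-88528147 on the - strand, Pou2af1 at chr9:51213440-51213739 on the + strand and Sdc1 at chr12:8771146-8771445 on the + strand. Each is written 5′ to 3′ on the strand of its gene, and capitals mark the searched motif described after the sequences.
Cd79a: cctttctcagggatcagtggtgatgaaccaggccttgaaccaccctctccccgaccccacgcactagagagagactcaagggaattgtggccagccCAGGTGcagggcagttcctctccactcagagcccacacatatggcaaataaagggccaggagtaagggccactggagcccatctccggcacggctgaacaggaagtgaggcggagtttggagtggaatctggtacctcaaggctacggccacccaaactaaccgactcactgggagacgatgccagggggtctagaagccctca
Jchain: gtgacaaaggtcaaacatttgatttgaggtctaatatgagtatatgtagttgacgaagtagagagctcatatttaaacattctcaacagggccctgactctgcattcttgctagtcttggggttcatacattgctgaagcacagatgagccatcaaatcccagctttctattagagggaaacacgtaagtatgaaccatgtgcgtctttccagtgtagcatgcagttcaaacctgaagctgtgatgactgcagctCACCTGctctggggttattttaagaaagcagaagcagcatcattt
Pou2af1: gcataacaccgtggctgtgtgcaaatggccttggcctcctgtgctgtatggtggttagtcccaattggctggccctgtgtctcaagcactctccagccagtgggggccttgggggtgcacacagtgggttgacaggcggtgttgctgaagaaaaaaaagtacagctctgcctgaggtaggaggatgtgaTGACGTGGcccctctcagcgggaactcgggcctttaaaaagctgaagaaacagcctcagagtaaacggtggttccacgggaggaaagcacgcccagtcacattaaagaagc
Sdc1: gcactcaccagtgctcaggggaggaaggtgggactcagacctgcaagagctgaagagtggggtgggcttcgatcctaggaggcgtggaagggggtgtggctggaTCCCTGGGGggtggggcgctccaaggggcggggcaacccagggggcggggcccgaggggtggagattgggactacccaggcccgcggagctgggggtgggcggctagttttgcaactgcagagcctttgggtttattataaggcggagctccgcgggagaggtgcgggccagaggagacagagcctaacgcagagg
The motifs were searched as letters on both strands. The capitals in Cd79a and Jchain are the E box CAGGTG, which E2A and other factors bind and which reads CACCTG on the opposite strand. It was in 4 of the 6 windows, those of Cd79a, Jchain, Prdm1 and Xbp1, and in 20.2% of all 32851 promoter windows. In Cd79a it began 154 bases before the start, and in Jchain at base 6 after it. The capitals in Pou2af1 are TGACGTGG, a core of the element bound by XBP1, which began 61 bases before the start and is in 0.676% of windows. In Sdc1 they are a match on the opposite strand to CCCNNGGGA, a core of the EBF1 motif, which is in 6.56% of windows. The octamer ATTTGCAT, the element through which POU2AF1 is recruited, was in none of the 6 windows and in 1.74% of all windows, and GAAAGTGAA, a core of the PRDM1 motif, was in none of the 6 and in 0.581% of all. Such matches describe letters and not bound sites, and the motifs do not overlap each other in these windows.

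All 9 genes are protein-coding, and their positions are given on GRCm38 with the GENCODE M21 annotation. Mzb1 and Pou2af1 each overlap another gene on the same strand, and Ms4a1 overlaps one on the other strand. The use of strand in counting is not given in the sources used here, so the counts of these 3 genes are uncertain to that extent.

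Per length, the 9 genes spanned a wide range in young ovaries. In Control, Sdc1 had a level of 29.8 ± 3.15 FPKM (SD, n = 4) and Xbp1 of 16.2 ± 1.63 FPKM, and their ranges did not overlap. Prdm1 (0.594 ± 0.122 FPKM), Jchain (0.517 ± 0.186 FPKM), Cd79b (0.421 ± 0.170 FPKM) and Cd79a (0.317 ± 0.0716 FPKM) followed, each overlapping the next. Mzb1 (0.150 ± 0.0693 FPKM) lay below Cd79a and overlapped Ms4a1 (0.114 ± 0.0211 FPKM), and Pou2af1 was lowest (0.0345 ± 0.0218 FPKM). In Aged 34 the order was different. There Jchain, at 41.7 FPKM, was above Sdc1 at 24.1 FPKM and also above Xbp1, and Pou2af1, at 3.89 FPKM, was above Cd79b at 3.43 FPKM.

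**Figure D1:**
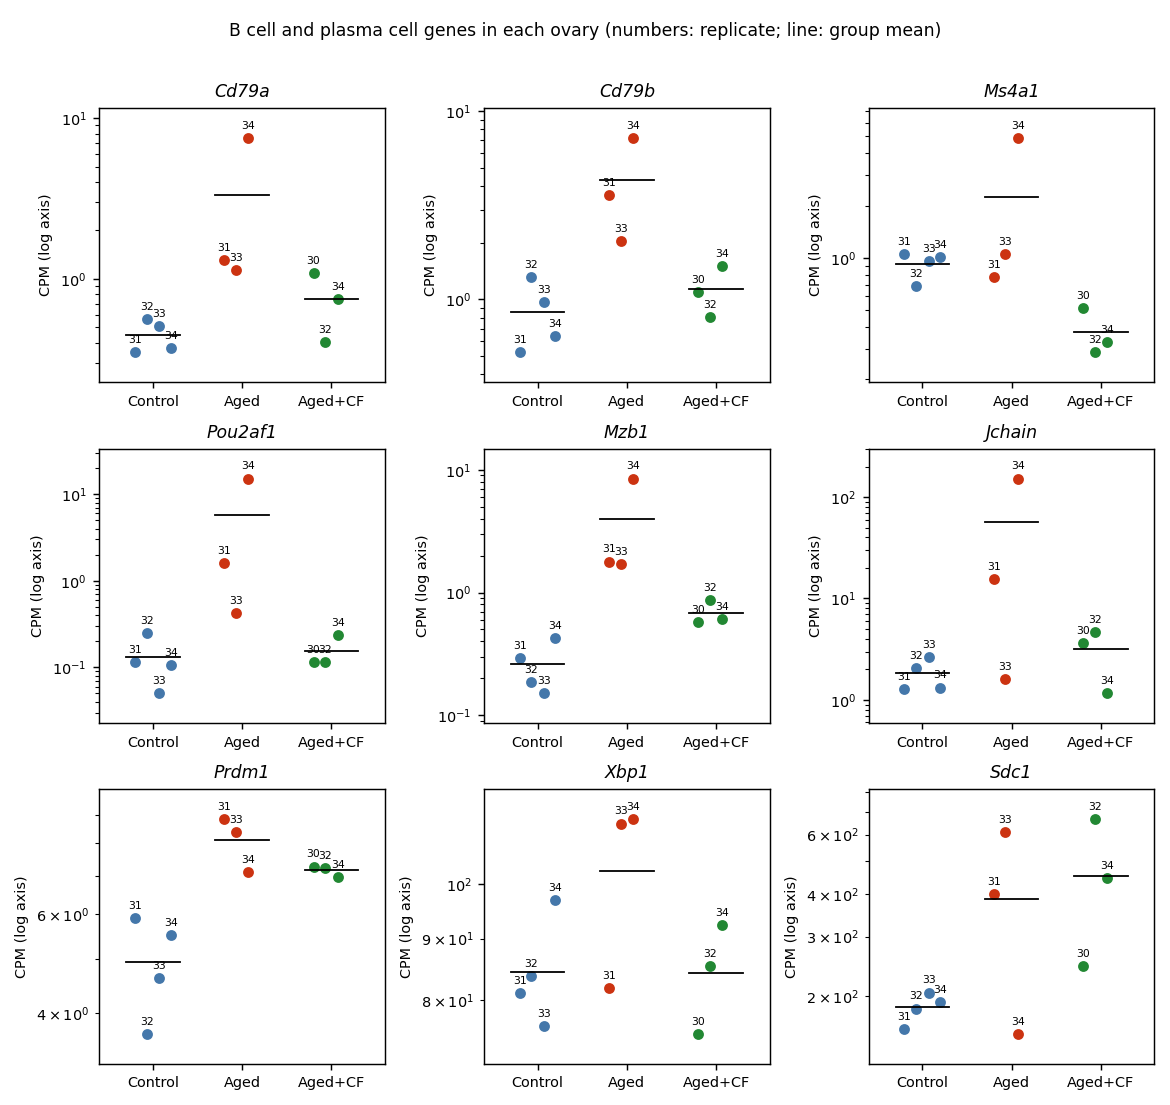
CPM on a log axis of each of the 9 genes in each ovary, with points for the 4 Control, 3 Aged and 3 Aged+CF ovaries, labelled by their number, and a line at each group mean. Aged 34 is the highest point for 7 of the 9 genes, Prdm1 and Sdc1 being the exceptions, and Jchain is at 152 CPM there against 1.17 to 15.5 CPM in the other 9 ovaries.

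Both signalling chains of the B cell receptor had higher levels in all 3 Aged ovaries than in any Control ovary. Cd79a (chromosome 7, 24897381 to 24902197) was at 0.350, 0.561, 0.507 and 0.371 CPM in Control 31, 32, 33 and 34, at 1.31, 1.13 and 7.55 CPM in Aged 31, 33 and 34, and at 1.09, 0.402 and 0.750 CPM in Aged+CF 30, 32 and 34. All Aged ovaries lay above all Control and all Aged+CF ovaries, and Aged+CF overlapped Control. The fitted log2 fold change of Cd79a was 2.89 ± 0.68 (SE) for Aged against Control and -2.16 ± 0.71 for Aged+CF against Aged. Without Aged 34 these values were 1.48 ± 0.42 and -0.72 ± 0.43, so the size of both differences depended on 1 ovary while Aged 31 and 33 kept the direction.

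Cd79b (chromosome 11, 106311341 to 106314762), which encodes the partner chain, showed the same order of groups. It was at 0.525, 1.31, 0.963 and 0.636 CPM in Control, at 3.58, 2.05 and 7.22 CPM in Aged, and at 1.09, 0.804 and 1.50 CPM in Aged+CF, listed by ovary as for Cd79a. The lowest Aged ovary was above the highest Control and the highest Aged+CF ovary. The log2 fold change was 2.32 ± 0.46 for Aged against Control and -1.91 ± 0.50 for Aged+CF against Aged, and 1.75 ± 0.41 and -1.32 ± 0.43 without Aged 34.

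Ms4a1 (chromosome 19, 11249675 to 11266241) encodes CD20, a membrane protein that B cells lose when they become plasma cells. Its levels were 1.05, 0.686, 0.963 and 1.01 CPM in Control, 0.775, 1.06 and 4.91 CPM in Aged, and 0.516, 0.287 and 0.328 CPM in Aged+CF. Aged 31 and 33 lay among or next to the Control ovaries, and the 3 Aged+CF ovaries lay below all 7 others. For Aged against Control, the log2 fold change was 1.28 ± 0.57 with Aged 34 and 0.01 ± 0.36 without it. For Aged+CF it was -2.57 ± 0.68 against Aged and -1.29 ± 0.66 against Control, resting on 5 to 9 reads per Aged+CF ovary and 11 to 19 reads per Control ovary.

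Pou2af1 (chromosome 9, 51213708 to 51240080) encodes a coactivator that works with octamer-binding factors in B cells and is needed for germinal centers. It had 2, 4, 1 and 2 reads in Control, 27, 6 and 275 reads in Aged, and 2, 2 and 5 reads in Aged+CF. These are 0.0507 to 0.249 CPM in Control, 1.61, 0.423 and 15.2 CPM in Aged, and 0.115 to 0.234 CPM in Aged+CF. All Aged ovaries lay above all others, but Aged 33 only by a few reads. The gene did not pass the filter on low counts, so that 8 of the 9 genes were fitted. With no filter, its log2 fold change for Aged against Control was 5.42 ± 1.06, a value that depends on the prior count at such low Control levels.

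Of the 2 transcription factors of plasma cell differentiation, Prdm1 differed between the groups and Xbp1 hardly did. Prdm1 (chromosome 10, 44437177 to 44528501), which encodes BLIMP1, was at 5.89, 3.68, 4.61 and 5.51 CPM in Control, at 8.83, 8.40 and 7.11 CPM in Aged, and at 7.28, 7.24 and 6.98 CPM in Aged+CF. Both older groups lay above every Control ovary, and Aged 34 was the lowest of the Aged ovaries. Against Control, the log2 fold change of Prdm1 was 0.72 ± 0.19 for Aged and 0.54 ± 0.19 for Aged+CF, and Aged+CF differed from Aged by -0.18 ± 0.20. PRDM1 is also made by T cells, macrophages and other cells.

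Xbp1 (chromosome 11, 5520659 to 5525893) was at 81.1, 83.9, 76.2 and 96.9 CPM in Control, at 81.8, 112 and 113 CPM in Aged, and at 75.0, 85.4 and 92.4 CPM in Aged+CF. The groups overlapped in each comparison. Its log2 fold change was 0.28 ± 0.14 for Aged against Control, the smallest of the 8 fitted genes, and -0.28 ± 0.15 for Aged+CF against Aged.

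Mzb1 (chromosome 18, 35647267 to 35649367), a chaperone of the endoplasmic reticulum that helps assemble secreted IgM, separated all 3 groups. It was at 0.292, 0.187, 0.152 and 0.424 CPM in Control, at 1.79, 1.69 and 8.49 CPM in Aged, and at 0.573, 0.862 and 0.609 CPM in Aged+CF. The groups did not overlap, with Aged+CF between Control and Aged. The log2 fold change was 3.89 ± 0.64 for Aged against Control, -2.55 ± 0.65 for Aged+CF against Aged and 1.34 ± 0.69 for Aged+CF against Control. Without Aged 34 it was 2.72 ± 0.40, -1.36 ± 0.40 and 1.36 ± 0.39. The Control values rest on 3 to 8 reads per ovary.

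Jchain (chromosome 5, 88519809 to 88527891), the joining chain, had the largest fitted difference of the 8 genes and also the largest standard errors. It was at 1.28, 2.06, 2.64 and 1.33 CPM in Control, at 15.5, 1.62 and 152 CPM in Aged, and at 3.61, 4.71 and 1.17 CPM in Aged+CF. Aged 31 and 34 were above all other ovaries, whereas Aged 33 lay within the Control range. The log2 fold change was 4.95 ± 1.17 for Aged against Control and -4.17 ± 1.25 for Aged+CF against Aged, and 2.27 ± 0.74 and -1.46 ± 0.78 without Aged 34.

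Sdc1 (chromosome 12, 8771323 to 8793715), the gene of the plasma cell surface proteoglycan CD138, followed another order. It was at 160, 184, 205 and 192 CPM in Control, at 401, 609 and 155 CPM in Aged, and at 246, 665 and 446 CPM in Aged+CF. Aged 34, highest for most of the other genes, was the lowest of all 10 ovaries for Sdc1, and all Aged+CF ovaries lay above all Control ovaries. Against Control, the log2 fold change was 1.07 ± 0.41 for Aged and 1.29 ± 0.41 for Aged+CF, and Aged+CF differed from Aged by 0.22 ± 0.45. The last value was -0.17 ± 0.34 without Aged 34 and -0.17 ± 0.47 without Aged+CF 32, so its direction was not fixed.

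**Figure D2:**
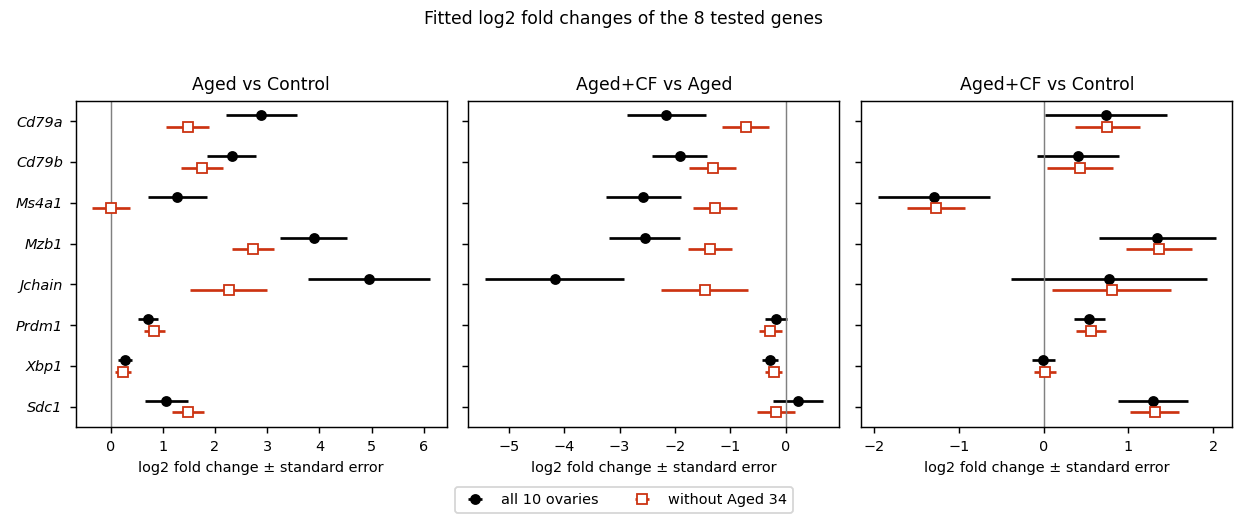
Fitted log2 fold change with its standard error (horizontal bar) of the 8 fitted genes in the 3 comparisons, from all 10 ovaries (filled circles) and without Aged 34 (open squares). For Aged against Control the value of Jchain moves from 4.95 to 2.27 and that of Ms4a1 from 1.28 to 0.01 when Aged 34 is left out, while that of Sdc1 moves up from 1.07 to 1.48.

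Counted over the 8 fitted genes, the edgeR quasi-likelihood test called 5 higher in Aged than in Control and called 0 lower. A call needed a change of 1.5 times or more and a p under 0.05 after Benjamini-Hochberg adjustment over 18956 genes. These were Mzb1, Jchain, Prdm1, Cd79a and Cd79b. Of all genes tested, 5% were called higher, 6.06% lower and 11.1% in either direction. At the unadjusted p, 7 of the 8 were called higher, all but Xbp1, and none lower, against 8.79% of all genes higher. DESeq2 called 6 higher and 0 lower at its adjusted p, and 14.6% of all genes in either direction. The edgeR count at adjusted p was 3 without Control 31, 2 without Control 32 and 2 without Control 34, when 8.54%, 5.74% and 5.8% of all genes were called. It was 5 without Aged 33, with 9.09% of all genes called. It was also 5 without Aged 34, when Sdc1 was called and Jchain was not, and 16.1% of all genes were then called. The ranges of Aged and Control did not overlap for 5 of the 9 genes, Mzb1, Prdm1, Cd79a, Cd79b and Pou2af1, all higher in Aged, as for 11.8% of all tested genes. Over the 8 genes the log2 fold change had a median of 1.80, beside -0.00 over all tested genes. The 9 genes had been chosen with these comparisons known, so the counts describe them and test nothing.

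Between Aged+CF and Aged, edgeR called 0 of the 8 genes at the adjusted p, and 0.00528% of all tested genes. At the unadjusted p, 5 were lower in Aged+CF, namely Mzb1, Jchain, Cd79a, Cd79b and Ms4a1, against 4.05% of all tested genes. Without Aged 34, 3 were lower, when 12.2% of all genes were called in either direction. Without Aged 33, 6 of the 9 genes were lower at the unadjusted p, when 7.89% of all were called in either direction. DESeq2 called 2, Cd79b and Jchain, at its adjusted p, which it gave for 5 of the 8 genes, and 2.33% of all genes. The ranges did not overlap for Mzb1, Cd79a, Cd79b, Ms4a1 and Pou2af1, all lower in Aged+CF, as for 8.39% of all tested genes. Over the 8 genes the log2 fold change had a median of -2.03, beside -0.02 over all genes.

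Between Aged+CF and Control, edgeR also called 0 of the 8 genes at the adjusted p, and 0.179% of all tested genes. At the unadjusted p it called 1, Sdc1, higher in Aged+CF, against 3.33% of all genes. That count was 2 without Control 31 or Control 34 and 0 without Aged+CF 32. Of all genes, 7.95%, 6.34% and 4.38% were then called in either direction. Without Aged 34, which shares the fit, 2 were higher and 1 was lower, and 10.3% of all genes were called in either direction. DESeq2 called Sdc1 at its adjusted p, and 2.79% of all genes. Mzb1, Sdc1 and Prdm1 were higher without overlap, as were 9.69% of all genes, and Ms4a1 was lower without overlap, as were 12.2%. The log2 fold change had a median of 0.64 over the 8 genes and of -0.03 over all genes.

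Ighm and Igkc, which encode chains of secreted antibody, were high in the same ovaries as Jchain. Ighm, the constant region of IgM, was at 5.89 to 8.60 CPM in Control, at 115, 9.59 and 1622 CPM in Aged 31, 33 and 34, and at 12.6 to 17.6 CPM in Aged+CF. Igkc, the kappa light chain constant region, was at 2.80 to 8.23 CPM in Control, at 103, 5.08 and 858 CPM in Aged, and at 5.30 to 17.7 CPM in Aged+CF. Aged 33 was thus close to the Control ovaries for both, as it was for Jchain. Of 12 constant region genes 7 were tested, and 5 of these rose in Aged against Control, also without Aged 34, among them Ighm (edgeR adjusted p = 0.0134), Igkc (0.0168), Ighg3 (0.0170) and Ighg2c (0.00916). Igha, the constant region of IgA, did not pass, with a log2 fold change of 0.51 ± 0.71 and an edgeR adjusted p of 0.673. Ighg2c, a constant region of IgG, followed another order, at 0 to 0.175 CPM in Control, at 17.4, 1.13 and 48.4 CPM in Aged, and at 7.57, 17.1 and 2.16 CPM in Aged+CF. All 3 Aged+CF ovaries were above all Control ovaries for it, with an edgeR adjusted p of 0.103 for Aged+CF against Control, and of 0.0336 without Aged 34. Over the 7 genes the log2 fold change of Aged against Control had a median of 5.85. Reads of constant regions are easily split between near-identical copies. Between Aged+CF and Aged, edgeR called 0 of the 7 at the adjusted p and 5 lower at the unadjusted p, and DESeq2 called 4 lower at its adjusted p.

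Across all 10 ovaries Jchain kept a narrow ratio to the heavy chains that its protein joins. There were 7.40 to 18.8 Jchain reads per 100 reads of Ighm and Igha together, while Jchain itself ranged from 1.17 to 152 CPM. The make-up of the heavy chains differed, since Igha was at 2.72 to 4.76 FPKM and Ighm at 2.76 to 3.95 FPKM in Control, and Igha was at 11.8 FPKM in Aged 34, where Ighm was at 731 FPKM. By contrast, Jchain reads per 100 reads of the receptor chain gene Cd79b varied widely. They were 78.1 in Aged+CF 34, 79.3 in Aged 33, 433 in Aged 31, 586 in Aged+CF 32 and 2110 in Aged 34. In the remaining ovaries they were 157 to 332. Jchain and Cd79b were therefore not in a constant proportion.

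The other genes of B cells moved in both directions. Of a list of 30, 24 were tested, 7 rose and 4 fell in Aged against Control at the adjusted p, with a median log2 fold change of 0.83, and without Aged 34 the counts were 5 and 3. Fcmr, the receptor for the Fc part of IgM, had 1 read in each Control ovary, 14, 11 and 46 reads in Aged, and 0, 4 and 1 reads in Aged+CF (edgeR adjusted p = 0.00769 for Aged against Control). Cd72, an inhibitory coreceptor of B cells, rose by a log2 fold change of 0.83 ± 0.17 (edgeR adjusted p = 0.0148). Bcl11a (-1.68 ± 0.25, edgeR adjusted p = 0.00559), Pik3cd (-0.95 ± 0.14, edgeR adjusted p = 0.00550) and Bach2 (-1.62 ± 0.47, edgeR adjusted p = 0.0447) were among the 4 that fell, and Bach2 did not pass without Aged 34 (edgeR adjusted p = 0.0661). Oocyte genes were lower in the same ovaries, with summed levels of 276 to 371 CPM in Control, 7.61 to 77.0 CPM in Aged and 102 to 162 CPM in Aged+CF, and the part of oocytes in these falls was not tested.

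Of 16 further plasma cell genes 13 were tested, 2 rose and 1 fell in Aged against Control, with a median log2 fold change of 0.29, and without Aged 34 the counts were 3 and 2. Cd38, a surface enzyme of plasma cells and other leukocytes, rose by 0.99 ± 0.12 on the log2 scale (edgeR adjusted p = 0.00361). Slamf7, a surface receptor of plasma cells and natural killer cells, rose by 1.48 ± 0.35 (edgeR adjusted p = 0.0225). Derl3, of the degradation pathway of the endoplasmic reticulum, fell by 2.03 on the log2 scale (edgeR adjusted p = 0.00843). It was at 23.1 to 41.3 CPM in Control, 4.36 to 11.6 CPM in Aged and 12.2 to 18.6 CPM in Aged+CF. Summed oocyte genes had the same order of groups, and the part of oocytes in the fall of Derl3 was not tested. Irf4, a factor that B cells need to become plasma cells, was at 1.43, 1.20 and 6.51 CPM in Aged against 0.934 to 1.62 CPM in Control and did not pass (edgeR adjusted p = 0.145). Of 23 genes of the unfolded protein response, many of them targets of XBP1, 22 were tested and 1 was called in Aged against Control, Edem1, with a log2 fold change of 0.73 ± 0.16 (edgeR adjusted p = 0.0163). Their median log2 fold change was 0.16. Between Aged+CF and Aged, edgeR called 0 of the 24, 13 and 22 tested genes of these 3 lists at the adjusted p. At the unadjusted p the B cell list had 2 higher and 7 lower, the plasma cell list 1 higher and 3 lower, and the unfolded protein response list 1 higher and 1 lower. DESeq2 called 3, 2 and 0 genes of the lists at its adjusted p, which it did not give for 7, 2 and 0 of them.

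Among the signals that attract or keep B and plasma cells, 8 of 12 genes were tested and 3 rose in Aged against Control, with a median log2 fold change of 1.07. Tnfsf13b, which encodes the survival factor BAFF, was at 1.27 to 2.23 CPM in Control and at 5.07, 2.40 and 8.88 CPM in Aged (log2 fold change 1.57 ± 0.43, edgeR adjusted p = 0.0353), and it did not pass without Aged 34 (edgeR adjusted p = 0.0801). Ltb, a lymphotoxin chain that organizes lymphoid tissue, rose by 1.90 ± 0.44 (edgeR adjusted p = 0.0204), and the chemokine gene Ccl28 by 2.24 ± 0.67 (edgeR adjusted p = 0.0493). Tnfsf13, which encodes APRIL, had a log2 fold change of 0.23 ± 0.28 (edgeR adjusted p = 0.621), and Cxcl12, a chemokine that holds plasma cells in bone marrow, one of -0.39 ± 0.33 (edgeR adjusted p = 0.466). Cxcl13, the chemokine of B cell follicles, was not tested and had 23, 0 and 97 reads in Aged 31, 33 and 34 and 0 to 9 reads elsewhere. It was thus found in the same 2 Aged ovaries that were high for Jchain. Pigr, the transporter of polymeric immunoglobulin, had no read in 7 of the 10 ovaries and at most 4. Cd5l, whose product circulates bound to IgM and is made by macrophages, rose against Control in Aged (2.52 ± 0.25, edgeR adjusted p = 0.00221) and in Aged+CF (2.34 ± 0.25, edgeR adjusted p = 0.00679).

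**Figure D3:**
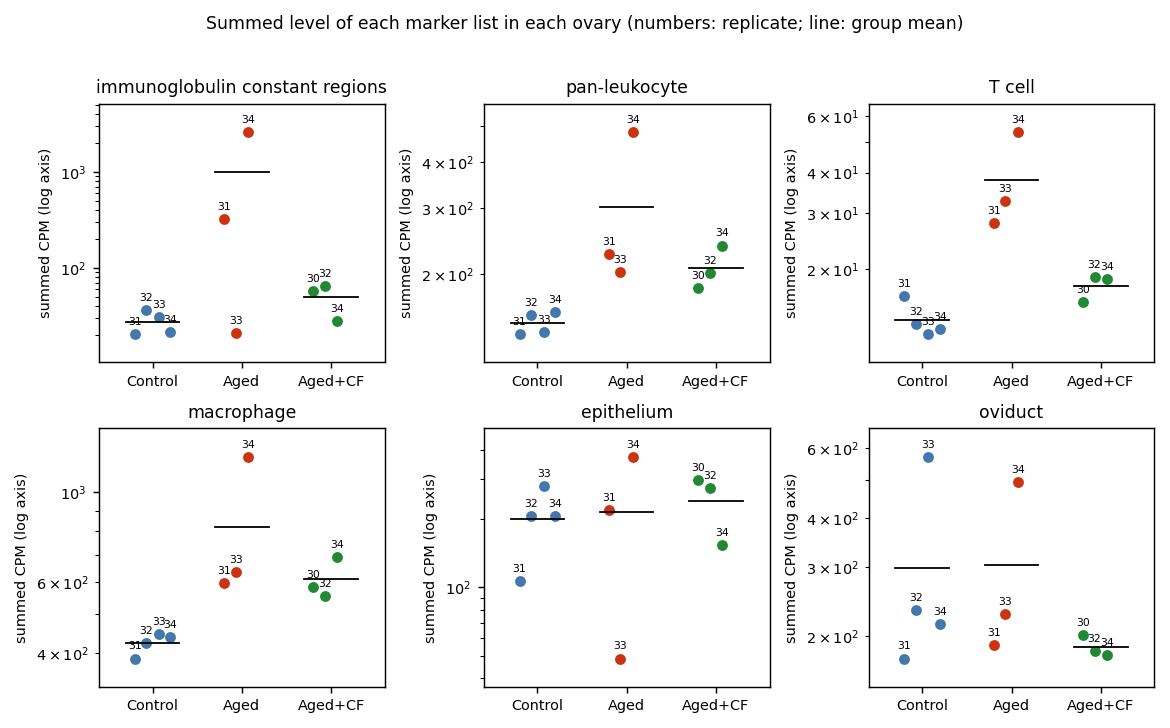
Summed CPM on a log axis of 6 lists of marker genes in each ovary, labelled by its number, with a line at each group mean. Immunoglobulin constant regions are at 323, 20.8 and 2629 CPM in Aged 31, 33 and 34 against 20.4 to 64.0 CPM in the other groups, and leukocyte and T cell sums in Aged lie above those in Control.

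Markers of other blood cells were higher in the same group. Of 8 pan-leukocyte genes, 7 rose in Aged against Control and 4 without Aged 34, and the summed level of the 8 was 138 to 158 CPM in Control, 202 to 481 CPM in Aged and 183 to 238 CPM in Aged+CF. Ptprc, one of them, had a log2 fold change of 1.25 ± 0.24 (edgeR adjusted p = 0.0114). Of 9 tested T cell genes of a list of 10, 5 rose, and 4 without Aged 34, among them Cd3e (2.29 ± 0.43, edgeR adjusted p = 0.0107), and the sum of the list was 12.6 to 16.5 CPM in Control, 27.9 to 53.6 CPM in Aged and 15.8 to 19.0 CPM in Aged+CF. Of 9 macrophage genes, 2 rose, Gpnmb and C1qa, and 1, Gpnmb, without Aged 34, and the sum was 388 to 446 CPM in Control, 596 to 1225 CPM in Aged and 555 to 691 CPM in Aged+CF. Of 5 genes of red blood cells, all 5 rose, and their sum was 71.8 to 112 CPM in Control, 418, 638 and 265 CPM in Aged 31, 33 and 34, and 109 to 260 CPM in Aged+CF. Aged 33 was highest for red blood cell genes and lay within the Control range for Jchain. The part that blood or other leukocytes have in the levels of the 9 genes was not tested. Of 6 oviduct and 10 epithelial genes edgeR called 0 in Aged against Control, at the adjusted and at the unadjusted p. DESeq2 also called 0, but gave no adjusted p for 3 of the 6 oviduct genes, which it could therefore not call. Control 33 and Aged 34, both high for oviduct genes, widened the spread within their groups. Without Aged 34, edgeR called 0 of both lists at the adjusted p. At the unadjusted p, 2 oviduct genes were then lower, when 22.1% of all genes were called in either direction. The sum of the epithelial genes was 106 to 278 CPM in Control, 218, 48.8 and 374 CPM in Aged 31, 33 and 34, and 153 to 296 CPM in Aged+CF, so that the Aged ovaries were in the same order as for Jchain. Glycam1, a gene of lymph node vessels chosen after its values were seen, had 10 reads in Aged 31, 88 in Aged 34 and 0 in the other 8 ovaries. The sum of the lymph node genes was 79.2 CPM in Aged 34 and 24.4 to 39.1 CPM elsewhere. In Control 33, whose oviduct genes were at 572 CPM, Jchain was at 2.64 CPM, Mzb1 at 0.152 CPM and Cd79a at 0.507 CPM. The other Control ovaries were at 1.28 to 2.06 CPM for Jchain, 0.187 to 0.424 CPM for Mzb1 and 0.350 to 0.561 CPM for Cd79a. The part of oviduct, epithelium or lymph node in the levels of the 9 genes was not tested.

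Set against Ptprc reads of the same ovary, 4 of the 9 genes still separated Aged from Control. There were 5.34, 7.43 and 15.5 Mzb1 reads per 100 Ptprc reads in Aged 31, 33 and 34, against 1.01 to 3.11 in Control and 2.14 to 3.22 in Aged+CF. Cd79a had 3.91, 4.95 and 13.8 reads per 100 Ptprc reads in Aged against 2.07 to 3.38 in Control, and Cd79b had 10.7, 8.98 and 13.2 against 3.10 to 7.89. Pou2af1 was the remaining gene, at 4.80, 1.86 and 27.7 in Aged against 0.338 to 1.50 in Control. Of 18955 tested genes, 0.311% were higher in Aged without overlap on this scale, and 63% were lower. Ptprc itself was at 13.6 to 16.9 CPM in Control and at 33.5, 22.8 and 54.6 CPM in Aged. The separation was not particular to these 4 genes. The T cell gene Cd3e had 13 to 21 reads in Control, beside 257 to 296 Ptprc reads. It had 58, 32 and 146 reads in Aged 31, 33 and 34, beside 562, 323 and 991 Ptprc reads. Per Ptprc read, Cd3e was thus higher in each Aged than in each Control ovary, whereas for Cd4 the groups overlapped. Other T cell genes were not set against Ptprc. Aged+CF was at 1.50 to 4.06 for Cd79a, where Aged+CF 30 was above Aged 31, and at 3.00 to 5.31 for Cd79b, below all Aged ovaries, as it was for Pou2af1. For the other genes Aged and Control overlapped. Prdm1, with 26.3, 36.8 and 13.0 reads per 100 Ptprc reads in Aged and 22.2 to 40.5 in Control, was no longer separated, and Jchain in Aged 33, at 7.12, was below each Control ovary. Ms4a1 was at 1.07 to 1.92 reads per 100 Ptprc reads in Aged+CF, below the 2.31 to 8.98 of the other 7 ovaries.

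**Figure D4:**
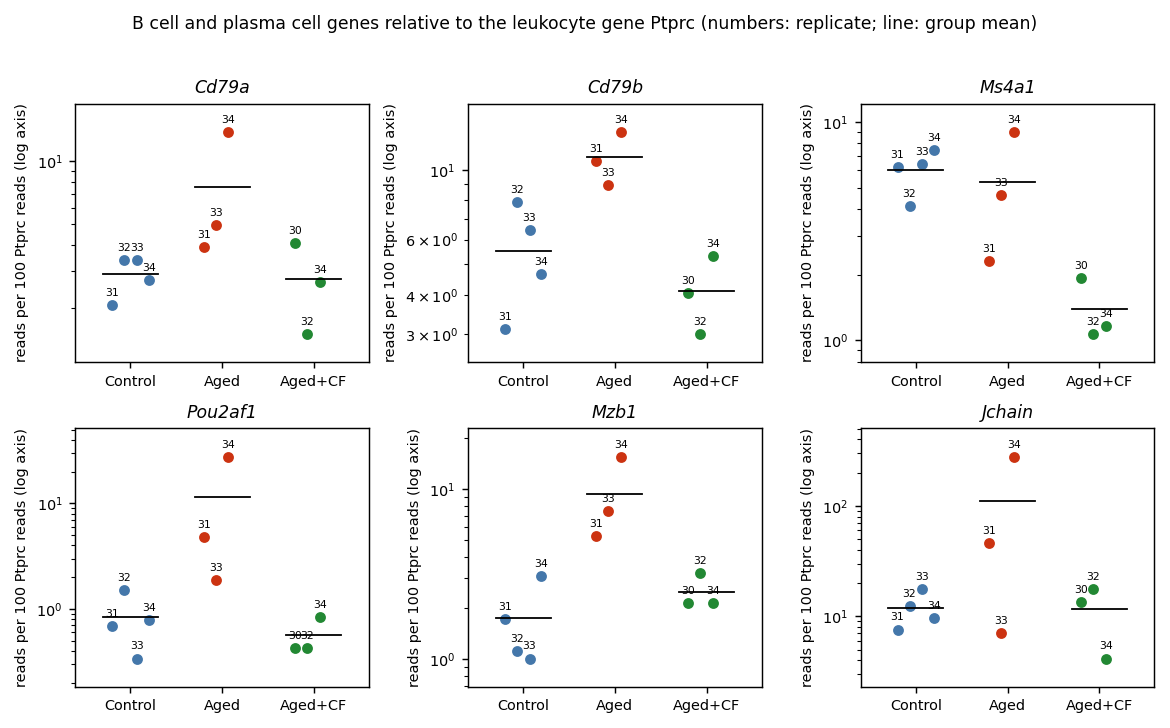
Reads of 6 genes per 100 reads of Ptprc in each ovary on a log axis, labelled by number, with a line at each group mean. For Mzb1, Cd79a, Cd79b and Pou2af1 all Aged ovaries are above all Control ovaries, and for Jchain Aged 34 is at 279 and Aged 33 at 7.12.

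The 9 genes were compared with each other and with 16736 genes of at least 1 CPM by the root mean square difference of their log2 CPM, standardized over the 10 ovaries, in which a smaller value means a more similar pattern. Among the 9, Cd79b and Pou2af1 (0.345), Cd79a and Pou2af1 (0.354) and Cd79a and Cd79b (0.357) were the most alike pairs. Sdc1 differed from the other 8 by 0.839, for Prdm1, to 1.69, for Ms4a1, and the median over all genes was 1.34 from Jchain and 1.33 from Cd79a. The genes nearest to Jchain were Igkc (0.153), Ighm (0.209), Igkv3-2, Lilrb4a and Tmem140. Nearest to Cd79a were Cd37 (0.187), which encodes a tetraspanin of B cells, Cdkn1c, Selenop, Pianp and Neurl3. Nearest to Xbp1 were the pseudogenes Gm7816 (0.221) and Gm15542, then Ppp2r5b, Dnajc3, which encodes a cochaperone of the unfolded protein response, and Vegfb. These patterns share the 10 libraries and, for Jchain and Cd79a, the high level in Aged 34.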

How the data were processed

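Libraries of total RNA from 10 ovaries (4 Control, 3 Aged, 3 Aged+CF) were grouped by their labels. The authors deposited read counts per gene without normalization, made with TopHat and Cufflinks 2.1.1 on GRCm38.p4 by the submitters' processing notes, which give neither the role of each tool nor the annotation. The authors also deposited FPKM, which in all 36618 genes with a read equalled, within 0.1%, the count divided by one gene length and by the library total. Depth was 15761789 to 21318254 counts per ovary, and no pair of libraries of the same group was a duplicate. Pairs from different groups were not checked.

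The whole table was analysed with edgeR 4.0 in R 4.3. The filter on low counts by group left 18956 genes, TMM scaled the libraries, and the 3 groups were fitted together by quasi-likelihood over all 10 ovaries. Calls required a change of 1.5 times or more and a p under 0.05, adjusted by Benjamini-Hochberg over the genes tested or unadjusted, since the study's text uses both. The code was tested on simulated data. Levels for likeness were log2 CPM with a prior count of 2. The 9 genes, the gene lists and the rule for named genes were chosen with earlier results of these data known. The rule named the 9 genes, 14 genes fixed by symbol, up to 4 and 2 genes of each list with the smallest p for Aged against Control and for Aged+CF against Aged, and the 5 genes nearest to Jchain, Cd79a and Xbp1. A few of these genes are left out of the text. Alternatives were no filter, DESeq2 size factors, scaling without immunoglobulin genes, the DESeq2 1.42 Wald test, only the compared groups, the replicate number as a block, and leaving out each ovary. Positions and overlaps are from GENCODE M21, which holds 55141 of the 55487 gene identifiers, and promoters are from RefSeq.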

Additional observations from a re-analysis of the deposited data

How the results depend on the processing

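The direction of the fitted log2 fold changes of the 8 genes was kept under all 14 alternatives in Aged vs Control. It was kept under all 11 in Aged+CF vs Aged except for Sdc1, which was lower without Aged 34 or Aged+CF 32. In Aged+CF vs Control it was kept except for Xbp1, whose values lay between -0.05 and 0.10. Leaving out each ovary of the compared groups in turn gave 2 to 5 of the 9 genes called in Aged vs Control. It gave 6 to 19 of the other B cell and plasma cell genes, against 14, and 5.74% to 16.1% of all tested genes. In Aged+CF vs Aged it gave 3 to 6 of the 9 genes at the unadjusted p, and 6 to 20 of the other genes, against 13. Of all tested genes, 5.95% to 12.2% were then called. At the adjusted p it gave 0 to 2 of the other genes, and 0.0051% to 2.87% of all. In Aged+CF vs Control it gave 0 to 2 of the 9 genes at the unadjusted p when the ovary was of a compared group, and 3 without Aged 34. Of all tested genes, 4.38% to 7.95% were then called, and 10.3% without Aged 34. The DESeq2 Wald test called 2 of the 9 genes, 5 of the others and 2.33% of all in Aged+CF vs Aged. It gave no adjusted p there for 3 of the 9 and 9 of the others. In Aged+CF vs Control it called 1 and 1, and 2.79% of all. With only the compared groups in the fit, 1 of the 9 genes, 2 of the others and 2.63% of all were called in Aged+CF vs Control. At the unadjusted p, 3 of the 9 were called, and 10.5% of all. The causes were not tested.

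Ovaries with the same number did not deviate together (correlations 0.14, -0.18 and 0.07 in Aged vs Control), so the numbers were not taken as pairs. With the replicate number as a block, the fit held the ovaries whose numbers both groups share. In Aged vs Control it called 0 of the 9 genes, 0 of the others and 0 of all 18310 tested genes at the adjusted p. At the unadjusted p it called 3 and 13, and 13.5% of all. The same ovaries were also fitted without the block, an alternative chosen after seeing the data. At the adjusted p the counts were 0 and 0, and 0.208% of all tested genes were called. At the unadjusted p, 5 of the 9 and 14 of the others were called, and 14.5% of all. Both fits hold fewer ovaries than the main fit, and the cause of the lower adjusted counts was not tested. In Aged+CF vs Control the fit without the block called 2 of the 9 genes at the unadjusted p, and 12.3% of all.

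Depth limits Mzb1, Cd79a, Ms4a1 and Pou2af1, which had 1 to 19 reads per Control ovary. With 3 Aged ovaries, of which Aged 33 and Aged 34 stand apart, the sizes of the differences are uncertain, and the Aged values serve both comparisons.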

Other observations

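Lists of other cells were also counted in Aged vs Control at the adjusted p (edgeR). Of 8 oocyte genes 7 fell, with a median log2 fold change of -2.52. Of 6 theca and luteal genes 5 rose, with a median of 1.63. Of 6 granulosa cell genes 1 fell, with a median of -1.34. Of 5 adipocyte genes 0 were called, also at the unadjusted p and by DESeq2. Their sum was 20.9 to 138 CPM in Control and 36.2, 46.8 and 153 CPM in Aged 31, 33 and 34. Without Aged 34, 0 were called at the adjusted p and 3 were lower at the unadjusted p. Of all genes, 22.1% were then called at the unadjusted p in either direction. Of 7 tested genes that plasmacytoid dendritic cells share with B cells or express strongly 0 were called, 2 were higher at the unadjusted p, Irf8 and Ccr9 (edgeR adjusted p = 0.0526 and 0.142), and DESeq2 called 1. Of the 5 genes of B cell precursors none passed the filter on low counts, and Vpreb1 had 4 to 12 reads per ovary. Of 2 tested lymph node genes 0 were called, 0 also by DESeq2, and 1 was higher at the unadjusted p, with Ccl19 at 2.70 CPM in Aged 34 and 0.516 to 0.988 CPM elsewhere.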
